A study of Mus musculus with 22 samples.

Results

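The comparison described here sets H3K4me3 in synovial fibroblasts of 11 week old Tg197 mice against the same cells of wild-type (WT) mice, the late stage of disease in a series that also sampled 3 and 8 weeks. Its members were all regions in the deposited 11 week table, 6593 of the 26201 regions in the 4 tables of the series. The Tg197 group and the WT group held 3 libraries each. Both groups were fibroblasts grown in culture to passage 4 to 5, from mice of a CBA x C57BL/6J strain background, and were immunoprecipitated with the same Diagenode antibody against H3K4me3. The Tg197 mice carry a human TNF transgene, and the WT mice do not. The labels name no added agent for either group. The labels do not say if replicate libraries stand for different mice or cultures, so p-values cover the spread between libraries, which may be technical.

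As background, trimethylation of lysine 4 of histone H3 is a mark of active and poised promoters, found mainly around the start sites of expressed genes. Tg197 mice overexpress human TNF and develop an erosive arthritis of the joints, in which synovial fibroblasts, the cells of the joint lining, respond to TNF and produce chemokines and matrix-degrading enzymes. TNF signals through adaptor proteins and kinases to the transcription factor NF-kB, which in turn induces the genes of its own inhibitors.

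Each library had between 807633 and 1096917 reads in the listed regions, and values are normalized reads per region, scaled by the authors. The table lists only regions in which the authors' best window differed between the groups with p of at most 0.0001, so it holds no unchanged background, and tests on it are not independent of that choice. Positions are on mm9. A promoter region lies within 3 kb of a transcription start site (TSS), and a gene with several is represented by the one with the highest mean. Below, higher and lower mean past the authors' adjusted p of 0.05, while rose and fell mean past that and also past limma's adjusted p of 0.05. By the authors' test 1965 regions were higher (29.8% of 6593) and 4417 were lower (67.0%). Limma alone called 1952 regions risen (29.6%) and 4462 fallen (67.7%), and in 6323 regions (95.9%) the values of the groups did not overlap. Values without overlap are therefore the rule in this table and do not set the genes named below apart. The median log2 change of all listed regions was -0.60. With each library scaled to the median of the listed regions, a shift of 0.34 on the log2 scale, limma called 2078 regions risen and 681 fallen, so most fallen calls depend on the authors' scaling. A change given as a bare number, as in rose by or fell by, is limma's log2 change of Tg197 over WT. Across regions, the Pearson correlation was 0.87 to 0.94 between libraries of a group and 0.48 to 0.67 between groups.

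H3K4me3 near start sites and H3K4me3 elsewhere did not divide in the same way between Tg197 and WT. Of the regions past the authors' test, 826 of 1663 within 3 kb of a TSS were higher in Tg197 (49.7%, exact Clopper-Pearson 95% interval 47.2 to 52.1), against 1139 of 4719 beyond 3 kb (24.1%, 22.9 to 25.4). The share was highest at the start site itself, where 164 of 214 regions centred within 250 bp were higher (76.6%, 70.4 to 82.1). It was 66.4% at 250 bp to 1 kb downstream and 43.6% at 1 to 3 kb downstream. Upstream it was 37.5% at 250 bp to 1 kb and 21.0% at 1 to 3 kb, below the downstream shares at the same distance, with intervals that did not meet. Gene bodies had 25.1% higher, intergenic regions 22.9% and gene deserts 14.3% (8 of 56). The contrast was largest at the highest read level. At means of 157 to 3870 normalized reads, 67.2% of regions within 3 kb and 29.1% beyond were higher. The shares were 32.5% and 23.1% at 69.2 to 92.3, and 28.1% and 22.6% at 92.4 to 103. At 103 to 119 they were 30.4% and 25.6%, and at 119 to 157 they were 36.9% and 23.6%. Intervals cover counting error only, since neighbouring regions share libraries.

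**Figure D1:**
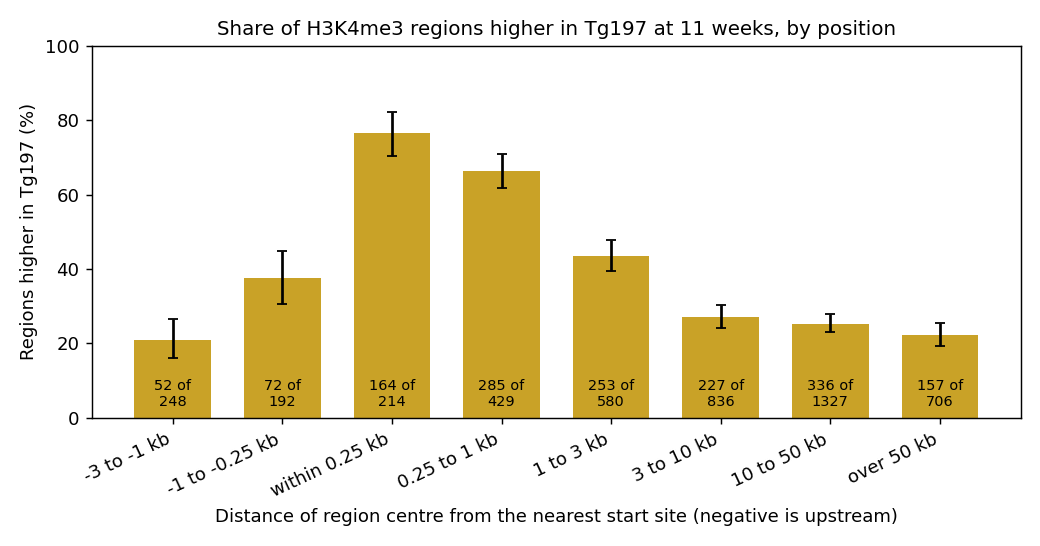
Bars give the percent of regions past the authors' adjusted p of 0.05 that were higher in Tg197, by distance of the region centre from the nearest start site in kb, with exact 95% intervals and the counts inside the bars. The share peaks at 76.6% within 250 bp and is 22.2% beyond 50 kb.

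Regions with a strong H3K4me3 signal near a start site were mostly on the higher side. Within 3 kb of a TSS, the share higher was 11.1% where the authors' enrichment over input was at most 1, 33.9% at 1 to 2, 37.5% at 2 to 4, 59.4% at 4 to 6 and 72.7% above 6 (245 of 337 regions). Beyond 3 kb the same steps gave 7.69%, 16.5%, 24.3%, 35.9% and 32.2%. With all read levels pooled, changes were smaller near start sites than away from them. The median log2 change within 3 kb was 0.48 for higher and -0.61 for lower regions, and beyond 3 kb it was 0.63 and -0.67. Among regions of similar level the difference was smaller. At means of 69.2 to 92.3 normalized reads, the medians were 0.69 and -0.75 within 3 kb, and 0.72 and -0.75 beyond. At 92.4 to 103 they were 0.65 and -0.67, and 0.64 and -0.68. At 157 to 3870 they were 0.41 and -0.47, and 0.46 and -0.57. That highest level held 913 of 1771 listed regions within 3 kb and 406 of 4822 beyond. The listed regions were spread over all chromosomes, and chromosome 11 held most (852, 12.9% of the table). The share higher ran from 20.0% on chromosome X (8 of 40) to 41.3% on chromosome 16.

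**Figure D2:**
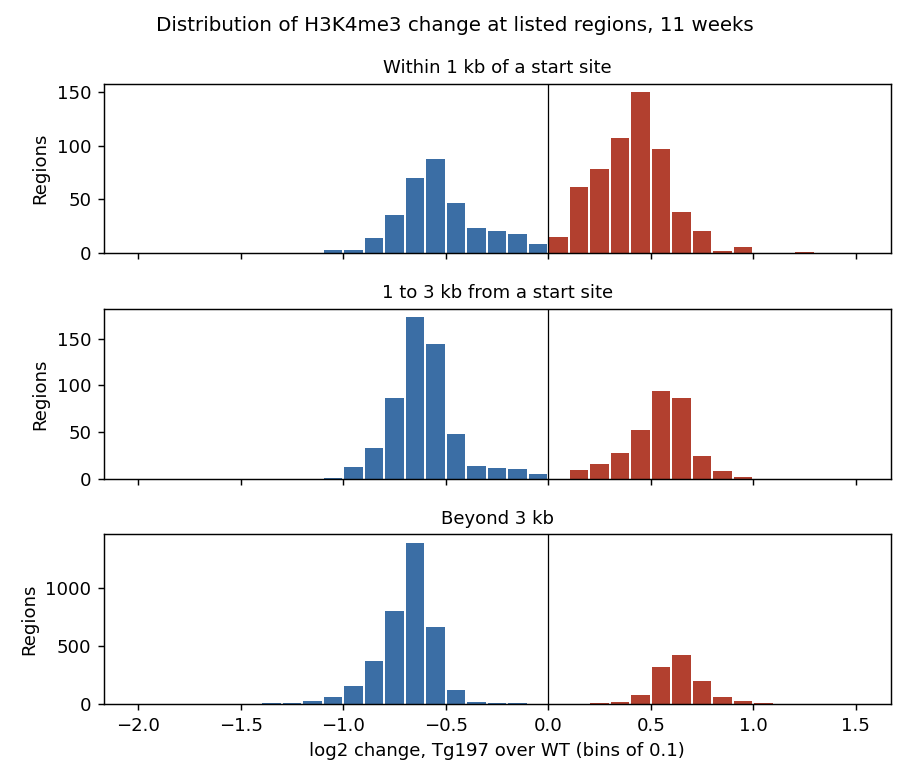
Histograms count listed regions by log2 change, Tg197 over WT, in bins of 0.1, for regions within 1 kb of a start site, 1 to 3 kb away and beyond 3 kb. Rises outnumber falls within 1 kb and falls outnumber rises beyond 3 kb, and the gap around 0 follows from the authors' selection of regions.

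Where a promoter rose, the body of the same gene fell more often than it rose, as gene bodies did in general. Such falls were still less frequent than where the promoter fell, was not called or was not listed. A gene was represented by a promoter region in 1670 cases, of which 715 rose (42.8%) and 744 fell (44.6%), with a median log2 change of 0.13. Among 2926 regions in gene bodies, 707 rose (24.2%) and 2141 fell (73.2%). Of the 715 genes with a risen promoter, 113 also had a called region in the gene body, which only fell in 57 (50.4%), only rose in 41 (36.3%) and went both ways in 15. Of the 744 genes with a fallen promoter, 153 had a called body region, which only fell in 115 (75.2%), only rose in 27 (17.6%) and went both ways in 11. In 1774 genes whose promoter was not called or not listed, the body regions only fell in 69.1% and only rose in 20.9%. Scaling to the median of the listed regions changed the promoter calls to 786 risen and 54 fallen. Scaling to the listed regions closest to start sites (at most 1 kb away), a shift of -0.15, gave 507 and 774. A fall at a promoter is therefore a fall relative to the authors' scaling, and in bulk libraries fewer cells with the mark and less mark per cell cannot be told apart.

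H3K4me3 rose at 5 inhibitors of NF-kB. Of 14 genes in this list, 9 had no listed region, and all 5 with a listed promoter region rose, with a median log2 change of 0.87, where 42.8% of all promoter genes rose. The promoter region of Nfkbia, the main IkB protein that holds NF-kB in the cytoplasm, had 582, 703 and 833 normalized reads in Tg197 and 375, 379 and 367 in WT. Every Tg197 library lay above every WT library, and the WT libraries were close together (1.89-fold, log2 0.90 ± 0.11 SE, adjusted p = 0.00305, limma). For Nfkbie, another IkB protein, the values were 659.6, 532 and 738 normalized reads in Tg197 and 376, 315 and 357 in WT, again without overlap (1.84-fold, log2 0.87 ± 0.12 SE, adjusted p = 0.00305, limma). Tnip1, a partner of the A20 deubiquitinase, had 674, 498 and 583 normalized reads in Tg197 and 349, 270.4 and 267 in WT (1.98-fold, log2 0.98 ± 0.13 SE, adjusted p = 0.00305, limma). Tnfaip3 encodes A20 itself, which removes ubiquitin chains from TNF receptor complexes. Its region had 619, 807 and 832 normalized reads in Tg197 and 470.2, 461 and 433 in WT, so that the lowest Tg197 library still exceeded the highest WT library (1.66-fold, log2 0.72 ± 0.11 SE, adjusted p = 0.00434, limma). Zc3h12a, the RNase Regnase-1 that degrades cytokine transcripts, had 409, 399 and 546 normalized reads in Tg197 and 275, 320.1 and 267 in WT (1.57-fold, log2 0.64 ± 0.12 SE, adjusted p = 0.00434, limma). In all 5 genes the region was centred downstream of the start, from 839 bp in Tnip1 to 2233 bp in Nfkbia. A body region of Tnip1 rose as well (log2 0.66). That of Nfkbie rose by 0.55 with overlapping groups, came to 0.22 without Tg197 library a, and lost its call without that library or without WT library b or c.

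The start-site sequences of these genes are printed to show where letters that match the NF-kB consensus stand beside the risen regions. The windows run from 250 bases before to 50 bases after the RefSeq start on GRCm38.p6, 5′ to 3′ along the gene, and capitals mark matches to the NF-kB consensus on either strand. Cxcl1, a neutrophil chemokine described below, is added as a target, and Chl1, the promoter with the highest rise, as one without a match. The regions themselves are on mm9, so no distance between a region and a match is given. Nfkbia lies at chr12:55492598-55492897 (minus strand), Nfkbie at chr17:45555450-45555749 (plus strand), Tnip1 at chr11:54962891-54963190 (minus strand), Tnfaip3 at chr10:19015361-19015660 (minus strand), Cxcl1 at chr5:90890995-90891294 (plus strand) and Chl1 at chr6:103510626-103510925 (plus strand).
Nfkbia: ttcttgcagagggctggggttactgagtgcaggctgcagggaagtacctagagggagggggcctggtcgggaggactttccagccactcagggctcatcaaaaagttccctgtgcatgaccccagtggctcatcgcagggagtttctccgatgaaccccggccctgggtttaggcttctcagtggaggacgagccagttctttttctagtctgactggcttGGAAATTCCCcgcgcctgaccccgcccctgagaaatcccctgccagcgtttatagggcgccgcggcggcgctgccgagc
Nfkbie: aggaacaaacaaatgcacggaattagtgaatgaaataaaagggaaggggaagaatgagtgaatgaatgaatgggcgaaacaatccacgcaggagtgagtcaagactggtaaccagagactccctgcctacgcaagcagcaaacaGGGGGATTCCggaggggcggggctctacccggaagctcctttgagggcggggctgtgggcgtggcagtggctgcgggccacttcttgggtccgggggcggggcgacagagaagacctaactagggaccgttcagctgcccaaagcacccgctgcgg
Tnip1: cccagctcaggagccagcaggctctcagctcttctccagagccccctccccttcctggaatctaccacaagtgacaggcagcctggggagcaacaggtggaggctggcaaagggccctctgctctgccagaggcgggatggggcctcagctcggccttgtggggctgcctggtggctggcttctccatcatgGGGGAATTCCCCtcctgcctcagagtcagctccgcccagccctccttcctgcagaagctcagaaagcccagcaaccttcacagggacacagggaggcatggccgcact
Tnfaip3: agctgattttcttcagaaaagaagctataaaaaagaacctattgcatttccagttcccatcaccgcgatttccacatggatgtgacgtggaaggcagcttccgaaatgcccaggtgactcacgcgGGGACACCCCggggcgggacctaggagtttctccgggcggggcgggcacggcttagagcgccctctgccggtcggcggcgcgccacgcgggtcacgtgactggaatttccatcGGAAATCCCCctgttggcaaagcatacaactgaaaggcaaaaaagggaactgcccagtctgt
Cxcl1: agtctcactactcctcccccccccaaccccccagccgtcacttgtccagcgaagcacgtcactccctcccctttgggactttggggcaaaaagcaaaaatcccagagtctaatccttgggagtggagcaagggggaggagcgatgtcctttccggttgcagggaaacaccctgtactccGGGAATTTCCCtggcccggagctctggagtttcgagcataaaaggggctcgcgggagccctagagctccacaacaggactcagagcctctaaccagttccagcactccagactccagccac
Chl1: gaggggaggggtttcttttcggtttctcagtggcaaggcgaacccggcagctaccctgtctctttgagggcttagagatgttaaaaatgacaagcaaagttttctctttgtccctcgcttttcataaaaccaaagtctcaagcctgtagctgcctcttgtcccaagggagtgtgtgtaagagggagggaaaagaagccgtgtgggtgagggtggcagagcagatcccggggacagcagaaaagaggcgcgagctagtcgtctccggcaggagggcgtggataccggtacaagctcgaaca

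The match begins 29 bases before the start in Nfkbia, on the opposite strand, and 106 bases before it in Nfkbie. Tnip1 has 1 stretch from 58 bases before the start, in which 4 overlapping alignments match. Tnfaip3 has 2 starts in the table, and the one shown has matches at 125 and 12 bases before it. Cxcl1 has 1 stretch from 71 bases before the start. Windows of Tank, Irf1, Gbp5, Bst2, Ifngr2 and Irf2 also held a match, and the windows of the other 15 genes of the 26 with one held none: Zc3h12a, Birc3, Ikbke, Myd88, Map3k14, Cxcl14, Ifit2, Irgm1, Oasl2, Ifnar2, Icam1, Dram1, Npy1r, Bmp4 and Chl1. Of 32851 RefSeq windows of this length, 4.51% held such a match. These letters describe the windows and say nothing of binding. A comparison of all risen with all fallen promoters was void, because 1276 of the 1670 genes (76.4%) matched a window.

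Signalling proteins upstream of NF-kB, and 1 subunit of it, moved the same way. Of 34 genes, 7 had a listed promoter region and all 7 rose (median log2 change 0.65), against 42.8% of all promoter genes. Tank, a scaffold of the kinases TBK1 and IKK-epsilon, had 284, 350.4 and 358 normalized reads in Tg197 and 216, 151 and 158 in WT, without overlap (1.89-fold, log2 0.93 ± 0.14 SE, adjusted p = 0.00434, limma). Birc3, the ubiquitin ligase cIAP2 of the TNF receptor complex, had 209.9, 224 and 222 normalized reads in Tg197 and 136, 147 and 112 in WT (1.66-fold, log2 0.74 ± 0.13 SE, adjusted p = 0.00434, limma). The Tg197 libraries of Birc3 differed by little and all exceeded the WT libraries. Ripk2, a kinase downstream of NOD receptors, rose by 0.66, and Nfkb1, which encodes the p50 subunit and its precursor, by 0.65. Ikbke, which encodes IKK-epsilon, rose by 0.53, Myd88, the adaptor of Toll-like and interleukin 1 receptors, by 0.40, and Map3k14, the NIK kinase of the non-canonical pathway, by 0.27. Without Tg197 library b the change of Nfkb1 was 0.43, and without Tg197 library a that of Ikbke was 0.32. Map3k14 missed the threshold without WT library c. Outside promoters, body regions of Traf5, Tbk1 and Ikbkb rose, those of Rela and Irak2 fell, and Relb had regions of both kinds.

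In a list of 39 genes drawn up for the TNF superfamily and its receptors, all 4 listed promoters rose (median 0.50). Of all promoter genes, 42.8% rose. With libraries scaled to the listed regions within 1 kb of a start site, 2 rises of this list passed. Fas, the death receptor, had 335, 321 and 301 normalized reads in Tg197 and 211, 210.2 and 237 in WT, without overlap (1.45-fold, log2 0.54 ± 0.10 SE, adjusted p = 0.00434, limma). Ngfr, the low-affinity neurotrophin receptor, had 127, 137 and 125 normalized reads in Tg197 and 89.4, 90.7 and 87.6 in WT (1.45-fold, log2 0.54 ± 0.14 SE, adjusted p = 0.00473, limma). Tnfrsf23, a decoy receptor, rose by 0.46, but by 0.28 and without passing limma's test when Tg197 library b was left out. Tnfaip2, a member of the list that is neither a ligand nor a receptor of this family, rose by 0.34. These lists and those below were drawn up with earlier results of these data known, so their counts are not independent evidence of a direction.

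**Figure D3:**
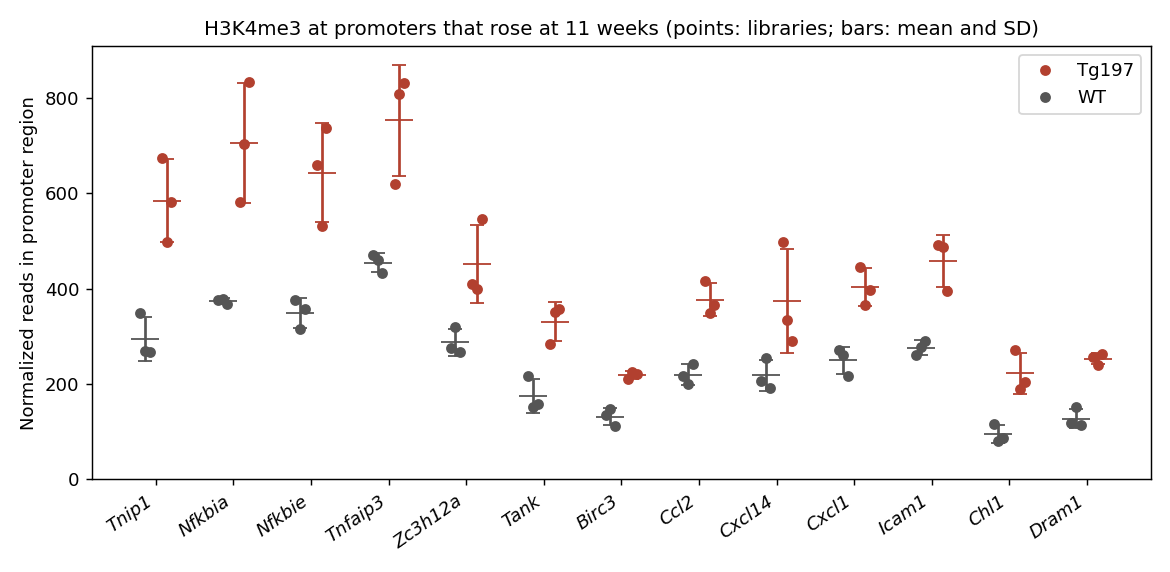
Points give normalized reads of each library at promoter regions that rose, with Tg197 in red and WT in grey, and bars give the mean and SD of 3 libraries. In each of the 13 genes the lowest Tg197 library exceeds the highest WT library. The groups did not overlap in 95.9% of all listed regions.

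Chemokine promoters rose in 5 of 7 listed cases (39 genes in the list, median 0.69), against 42.8% of all promoter genes. Ccl2, which attracts monocytes, had 416, 349 and 365 normalized reads in Tg197 and 217, 199.7 and 243 in WT, without overlap (1.71-fold, log2 0.78 ± 0.11 SE, adjusted p = 0.00345, limma). Cxcl1, which attracts neutrophils, had 447, 367 and 397 normalized reads in Tg197 and 272, 261 and 218 in WT (1.61-fold, log2 0.69 ± 0.11 SE, adjusted p = 0.00434, limma). Cxcl14 had 498, 335 and 291 normalized reads in Tg197 and 208, 256 and 191 in WT, where the highest Tg197 library stood well above the others but all exceeded the WT libraries (1.72-fold, log2 0.75 ± 0.17 SE, adjusted p = 0.00434, limma). Cxcl17 rose by 0.70 and Ccl7, a neighbour of Ccl2 in the chemokine cluster of chromosome 11, by 0.43. Ccr7, a receptor of lymphocytes and dendritic cells, fell by 0.58. Cxcl12, a chemokine made by resting fibroblasts, was listed with a log2 change of 0.30 but overlapping values, and did not pass.

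Interleukin genes split evenly. Of 9 listed promoters among 51 genes, 4 rose and 4 fell, against 42.8% and 44.6% of all promoter genes. The risen genes were all receptors or kinases: Il1r1, the signalling receptor of interleukin 1 (0.62), Il4ra, a receptor chain for interleukins 4 and 13 (0.61), Lifr, the receptor of leukemia inhibitory factor (0.46), and the kinase Jak2 (0.47). Il1r1 rested on Tg197 library a, without which the change was 0.31 and did not pass, and the call was also lost without WT library b. In this list 2 rises and 4 falls passed with libraries scaled on the start-site regions. The fallen genes were Sigirr, a negative regulator of interleukin 1 receptor signalling, the cytokines Il23a (-0.72) and Clcf1 (-0.68), and the kinase Jak1 (-0.57). Sigirr had 55.7, 63.5 and 67.0 normalized reads in Tg197 and 153, 137 and 106 in WT, without overlap (to 0.47 of WT, log2 -1.07 ± 0.19 SE, adjusted p = 0.00434, limma), and this was the promoter with the largest fall. Il4ra had 3 risen regions in all, 1 of 12 genes with 3 or more.

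Interferon response genes rose in 12 of 15 listed promoters, of 62 genes in the list, against 42.8% of all promoter genes, with a median of 0.48. Mx2, an antiviral GTPase, had 149.9, 138 and 137 normalized reads in Tg197 and 97.1, 99.4 and 65.2 in WT, without overlap (1.63-fold, log2 0.72 ± 0.18 SE, adjusted p = 0.00446, limma). Irf1, a transcription factor induced by interferon and by NF-kB, had 449.7, 258 and 249 normalized reads in Tg197 and 194, 177 and 191 in WT (1.7-fold, log2 0.71 ± 0.18 SE, adjusted p = 0.00452, limma), and its change was 0.44 without Tg197 library a. Ifit2 rose by 0.65, Parp14 by 0.66, Zbp1, a sensor of nucleic acids, by 0.59, and Bst2, the virus-tethering protein tetherin, by 0.55. Of these, Parp14 was at 0.43 without WT library b, and Zbp1 missed limma's threshold without Tg197 library b. Irgm1, Oasl2 and the receptor chain Ifngr2 rose by 0.48, 0.47 and 0.40, and Irf2 by 0.32. Gbp5, at 0.56, lost its call without library a of either group, and Ifnar2, at 0.25, without library a or c of either group. The 3 that fell were Oasl1 (-0.71) and the transcription factors Irf5 (-0.55) and Irf8 (-0.50), which are best known from leukocytes. With libraries scaled on the start-site regions, 8 of the 12 rises passed.

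Antigen presentation showed 4 risen promoters of 5 listed, from 29 genes, against 42.8% of all promoter genes. Psme2, a subunit of the proteasome activator, rose by 0.54, the class II chain H2-Ab1 by 0.54, and the class I genes H2-M3 and H2-K1 by 0.50 and 0.43. Some class I genes are similar in sequence, so reads may be shared among them, which was not tested. B2m, the light chain of class I, changed by 0.20 and was not called. Of the adhesion molecules, Icam1, a ligand of leukocyte integrins, had 492, 488 and 395 normalized reads in Tg197 and 261, 278 and 291 in WT, without overlap (1.66-fold, log2 0.72 ± 0.10 SE, adjusted p = 0.00396, limma). Vcam1, a marker of the lining fibroblast, had 315, 242 and 301 normalized reads in Tg197 and 205, 193 and 174 in WT (1.5-fold, log2 0.58 ± 0.12 SE, adjusted p = 0.00434, limma). Itga1, a collagen-binding integrin chain, fell by 0.50, and Cd44, the hyaluronan receptor, and Itgb5 were not called.

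**Figure D4:**
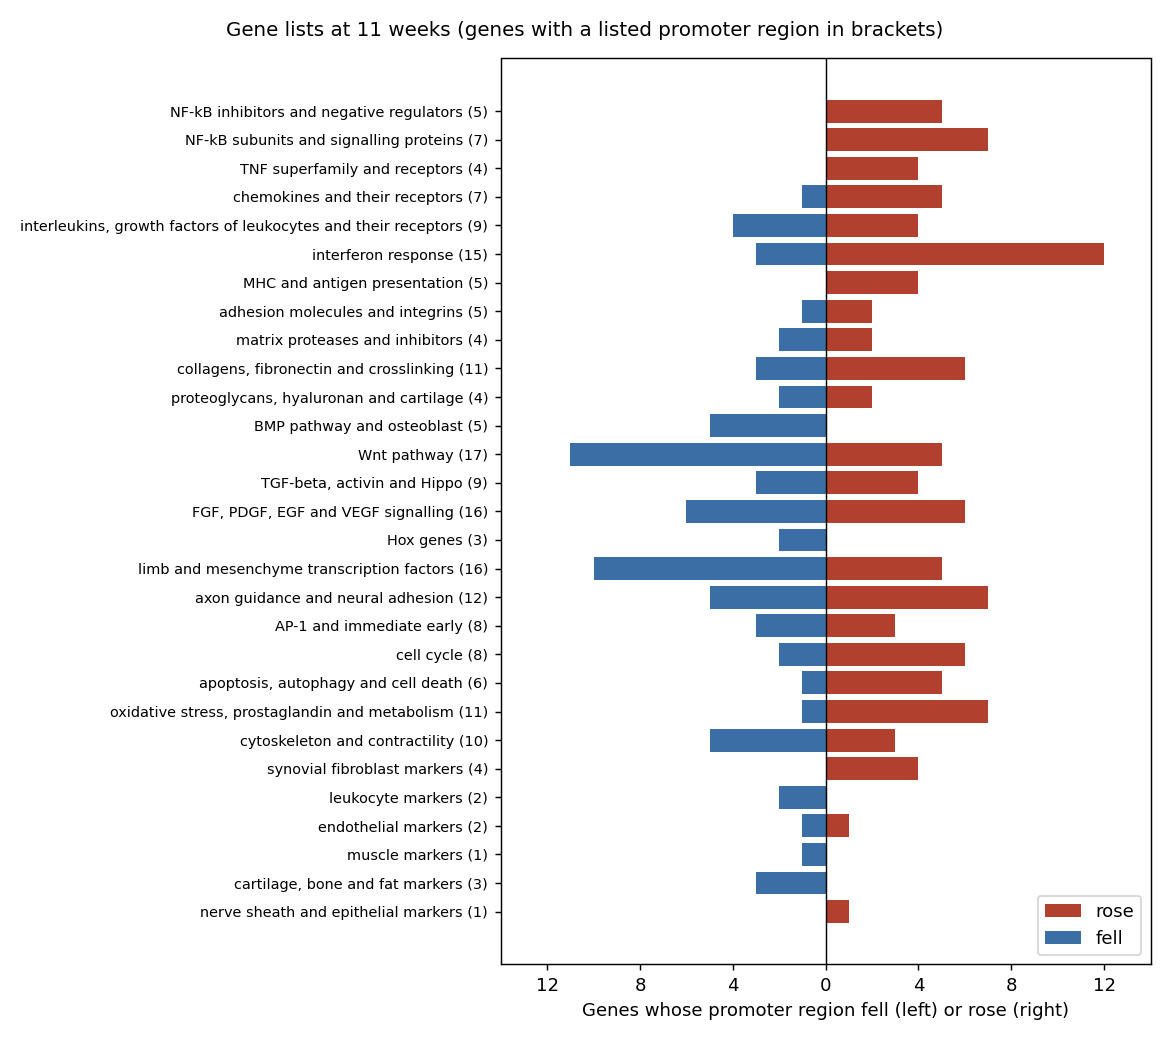
For each of 29 gene lists, bars give the number of genes whose promoter region fell (left) or rose (right) at 11 weeks, with the number of genes with a listed promoter region in brackets. The NF-kB and TNF lists have bars to the right only and the BMP list to the left only, while the Wnt list has 11 falls and 5 rises.

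In the list of the BMP pathway and osteoblasts, 5 of 49 genes had a listed promoter region and 38 had no listed region. All 5 listed promoters fell, where 44.6% of all promoter genes fell, with a median log2 change of -0.53. Bmp4, a bone morphogenetic protein, had 304, 251 and 261 normalized reads in Tg197 and 421, 448 and 616 in WT, without overlap (to 0.55 of WT, log2 -0.85 ± 0.13 SE, adjusted p = 0.00434, limma). Sp7, the transcription factor osterix required for osteoblasts, had 324, 214 and 214 normalized reads in Tg197 and 391, 413 and 381 in WT (to 0.636 of WT, log2 -0.68 ± 0.14 SE, adjusted p = 0.00434, limma). Smad9, a receptor-activated SMAD of the pathway, had 146, 149.6 and 153 normalized reads in Tg197 and 226, 236 and 189.9 in WT, and its Tg197 libraries lay close together below every WT library (to 0.687 of WT, log2 -0.53 ± 0.12 SE, adjusted p = 0.00434, limma). Smad6, an inhibitory SMAD that is itself a target of the pathway, had 507, 564 and 589 normalized reads in Tg197 and 634, 708 and 875 in WT (to 0.748 of WT, log2 -0.41 ± 0.11 SE, adjusted p = 0.00487, limma). Fst, the activin and BMP antagonist follistatin, fell by 0.22, but its change was 0.12 with scaling to the median of the listed regions, so its direction flips. With that scaling 1 of the 5, Bmp4, was still called. Of body regions in this list, 3 rose, in 2 genes, and 14 fell, where 24.2% and 73.2% of all gene-body regions did.

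The Wnt pathway had 17 listed promoters of 66 genes, of which 11 fell and 5 rose (median -0.47), against 44.6% and 42.8% of all promoter genes. Wnt10a, a ligand of the canonical pathway, had 33.2, 69.7 and 61.1 normalized reads in Tg197 and 121, 101 and 105 in WT, and Tg197 library a was the lowest, without overlap of the groups (to 0.501 of WT, log2 -1.05 ± 0.26 SE, adjusted p = 0.00447, limma). Fzd4, a receptor, had 95.3, 72.7 and 91.2 normalized reads in Tg197 and 172, 118 and 144 in WT (to 0.598 of WT, log2 -0.73 ± 0.18 SE, adjusted p = 0.00441, limma). Axin2, a feedback inhibitor and standard target of the pathway, had 68.5, 111 and 113 normalized reads in Tg197 and 149, 172 and 144 in WT (to 0.629 of WT, log2 -0.70 ± 0.19 SE, adjusted p = 0.00497, limma), and its change was -0.46 without Tg197 library a. Lgr5, an R-spondin receptor and Wnt target, had 348, 324 and 332 normalized reads in Tg197 and 444, 495 and 576 in WT (to 0.663 of WT, log2 -0.59 ± 0.10 SE, adjusted p = 0.00434, limma). Other falls were Wnt7b (-0.63) and Wnt5b (-0.53), both ligands, Notum, a secreted inhibitor (-0.62), the transcription factor Tcf7l2 (-0.57), the co-receptor Lrp6 (-0.47), the receptor Fzd8 (-0.38) and Wisp2 (-0.35). Fzd8 missed the threshold without Tg197 library b. The rises were Dkk2, a secreted antagonist (0.63), the co-receptors Lrp4 (0.41) and Lrp5 (0.39), the ligand Wnt9a (0.38) and Tcf7l1 (0.23). Lrp5 lost its call without Tg197 library c or WT library b, and Tcf7l1 without 4 of the 6 libraries in turn. With scaling to the median of the listed regions 1 of the 11 falls was called, Wnt10a, and all 5 rises. With libraries scaled on the start-site regions 2 rises and 12 falls passed. Of body regions, 4 rose and 24 fell, where 24.2% and 73.2% of all gene-body regions did.

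Of transcription factors of limb and mesenchyme development, 10 of 16 listed promoters fell and 5 rose (84 genes, median -0.54), where 44.6% of all promoter genes fell and 42.8% rose. Irx3, an Iroquois factor of limb patterning, had 65.3, 131 and 95.4 normalized reads in Tg197 and 181, 186 and 154 in WT, without overlap (to 0.561 of WT, log2 -0.88 ± 0.21 SE, adjusted p = 0.00441, limma). Snai2, a zinc finger factor of mesenchymal cells, had 585, 547 and 489 normalized reads in Tg197 and 695, 694 and 683 in WT, where the WT libraries were nearly equal (to 0.782 of WT, log2 -0.36 ± 0.08 SE, adjusted p = 0.00434, limma). Foxd1 fell by 0.74, Lhx2 by 0.73, Osr2, a factor of joint formation, by 0.64, Irx5 by 0.62 and Foxc1 by 0.61. Zeb2 and the hedgehog effector Gli2 fell by 0.58 and 0.51. Lhx9 rose by 0.77, Irx2 by 0.73, Egr3 by 0.47 and En1 by 0.50. Sox10, a neural crest factor, rose by 0.52, but was at 0.24 and not called without Tg197 library a, nor was it called without any 1 of the WT libraries. Of 3 listed Hox promoters, Hoxc13 fell by 0.68 and Hoxa10 by 0.24, the latter reversing to 0.11 with scaling to the median of the listed regions. Under that scaling 1 of the 10 falls, Irx3, was called.

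**Figure D5:**
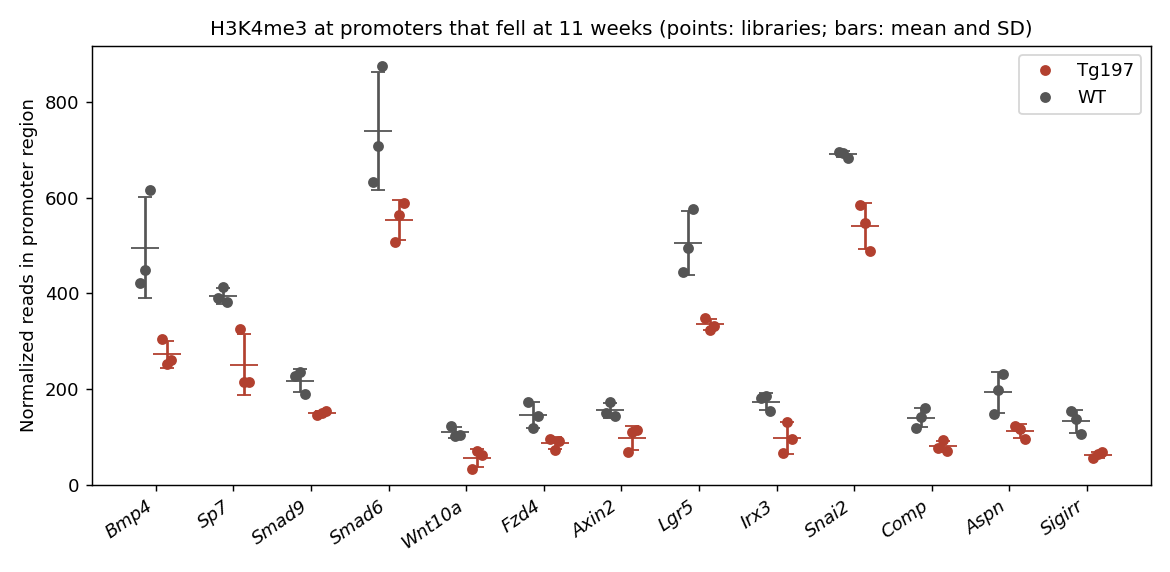
Points give normalized reads of each library at promoter regions that fell, with WT in grey and Tg197 in red, and bars give the mean and SD of 3 libraries. In each of the 13 genes the highest Tg197 library is below the lowest WT library. The groups did not overlap in 95.9% of all listed regions.

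Matrix genes went both ways. Among collagens, fibronectin and crosslinking enzymes, 6 of 11 listed promoters rose and 3 fell (54 genes, median 0.48). Of all promoter genes, 42.8% rose and 44.6% fell. Col24a1, a fibrillar collagen of developing bone, rose by 0.66, Col18a1, a basement membrane collagen, by 0.52, Col8a1 by 0.48, and the crosslinking enzymes Loxl4 and Loxl1 by 0.65 and 0.48. Col6a1 and Col6a2, neighbouring genes for chains of collagen VI, moved apart, with 119.9, 194 and 181 normalized reads in Tg197 and 113, 93.3 and 120.2 in WT for Col6a1 and 80.3, 96.3 and 67.8 normalized reads in Tg197 and 135, 134 and 124 in WT for Col6a2. The groups overlapped in Col6a1 and not in Col6a2 (log2 0.58 and -0.69). Sparc, a collagen-binding protein of bone, fell by 0.82, and by 0.54 without Tg197 library a. Col12a1 fell by 0.64, and Fn1, fibronectin, was not called at -0.15. In gene bodies of this list 7 regions rose and 29 fell, where 24.2% and 73.2% of all gene-body regions did.

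A listed promoter region was found for 4 of 52 proteases and inhibitors and for 4 of 45 proteoglycan and cartilage genes. Over all lists, 203 of 1213 genes had one. In each of these 2 lists 2 promoters rose and 2 fell, where 42.8% of all promoter genes rose and 44.6% fell. Among the proteases, Adam12 rose by 0.57 and Plau, the urokinase, fell by 0.58. Adamts6 fell by 0.58 and missed the threshold without WT library c. Adamts5, an aggrecanase, rose by 0.31 with overlapping groups, and was called in 1 of 6 fits that left out a library. Of 45 proteoglycan and cartilage genes, Has3, a hyaluronan synthase, rose by 0.45 and Sdc4, the proteoglycan syndecan 4, by 0.39. Comp, the cartilage oligomeric matrix protein, had 76.0, 93.2 and 69.5 normalized reads in Tg197 and 119, 140.4 and 159.5 in WT, without overlap (to 0.57 of WT, log2 -0.81 ± 0.17 SE, adjusted p = 0.00434, limma). Aspn, the small proteoglycan asporin, had 122, 117 and 94.6 normalized reads in Tg197 and 148, 198 and 231 in WT (to 0.578 of WT, log2 -0.77 ± 0.17 SE, adjusted p = 0.00434, limma).

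Growth factor pathways were mixed, as were promoter genes in general (42.8% rose and 44.6% fell). In the TGF-beta, activin and Hippo list (41 genes), 4 of 9 listed promoters rose and 3 fell. Smad3, a receptor-activated SMAD, had 261, 279.7 and 361 normalized reads in Tg197 and 187, 211 and 231 in WT (1.43-fold, log2 0.51 ± 0.13 SE, adjusted p = 0.00455, limma), and the transcriptional co-activator Yap1 rose by 0.47, the receptor Acvr1b by 0.56 and Tgfb1 by 0.32. The ligand Tgfb2, the co-receptor Eng and the latency protein Ltbp4 fell by 0.59, 0.61 and 0.75, and Ltbp4 was at -0.49 without Tg197 library a. In the list of FGF, PDGF, EGF and VEGF signalling (59 genes), 6 of 16 rose and 6 fell. With libraries scaled on the start-site regions 3 rises and 7 falls of this list passed. Fgf10, a mesenchymal growth factor, had 114, 105 and 87.1 normalized reads in Tg197 and 65.1, 49.7 and 64.0 in WT, without overlap (1.71-fold, log2 0.77 ± 0.20 SE, adjusted p = 0.00461, limma). Vegfc and Vegfa, which drive lymphatic and blood vessel growth, rose by 0.61 and 0.31, Igfbp7 by 0.59, and the PDGF receptors Pdgfra and Pdgfrb by 0.26 and 0.23, though Pdgfrb was called in 2 of 6 fits that left out a library. The phosphatase Dusp10 fell by 0.69, the receptors Erbb2 and Fgfr3 by 0.59 and 0.57, and Igfbp2 by 0.56. Fgfr3 was at -0.29 without Tg197 library a, and Igfbp2 was not called without WT library c. Fgfr2 fell by 0.25 and reversed to 0.09 with scaling to the median of the listed regions. Dusp4 fell by 0.42 with overlapping groups, a call lost without Tg197 library c, WT library a or WT library b.

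Genes of axon guidance and neural adhesion, many of which are also used by fibroblasts, had 7 rises and 5 falls among 12 listed promoters (107 genes, median 0.42). Of all promoter genes, 42.8% rose and 44.6% fell. The list included the highest rise of any promoter, Chl1, a cell adhesion molecule of the L1 family. Its region had 272, 191 and 205 normalized reads in Tg197 and 116, 81.1 and 87.6 in WT, and the lowest Tg197 library was above the highest WT library by a wide gap (2.35-fold, log2 1.23 ± 0.17 SE, adjusted p = 0.00362, limma). The authors' enrichment over input of this region was 0.87 in WT and 2.18 in Tg197. Slit1, a secreted guidance cue, rose by 0.98, Npy1r, a neuropeptide Y receptor, by 0.96, and the cell surface proteins Flrt3 and Flrt2 by 0.53 and 0.51. Slit2 rose by 0.43, and by 0.22 without Tg197 library c. Efna5, a membrane-bound ephrin, fell by 0.80 (by 0.50 without Tg197 library a), Sema6c by 0.63 and the semaphorin receptor Plxna1 by 0.62. Unc5b, a netrin receptor, fell by 0.50, and by 0.26 without Tg197 library a.

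Of 54 cell cycle genes 8 had a listed promoter, with 6 rises and 2 falls, where 42.8% of all promoter genes rose. With libraries scaled on the start-site regions 2 rises and 2 falls passed, and of body regions 2 rose and 7 fell. Over all gene-body regions 24.2% rose and 73.2% fell. Ccnd1, cyclin D1, had 233, 252 and 228 normalized reads in Tg197 and 161, 168 and 169.6 in WT, without overlap (1.43-fold, log2 0.51 ± 0.10 SE, adjusted p = 0.00434, limma), and Cdkn1a, the inhibitor p21, rose by 0.36 and Ccng1 by 0.50. The calls of E2f2, Plk2 and Trp53 were each lost without 3 or 4 of the libraries in turn. Of the 2 that fell, Aurkb, a mitotic kinase, changed by -0.55, while Cdk2 changed by -0.91 with overlapping groups and by -0.36 without Tg197 library a, with the call also lost without any 1 of the WT libraries. Of 6 listed promoters of apoptosis and autophagy genes 5 rose, against the same 42.8%. Of body regions in this list none rose and 6 fell, where 73.2% of all gene-body regions fell. Dram1, a lysosomal protein induced by p53 that takes part in autophagy, had 257, 241 and 263 normalized reads in Tg197 and 118, 151 and 114 in WT, without overlap (1.99-fold, log2 1.00 ± 0.13 SE, adjusted p = 0.00305, limma). Atg16l1, a core autophagy protein, rose by 0.66, the pore-forming death proteins Gsdmd and Mlkl by 0.59 and 0.54, and Bax by 0.44, while Birc5, survivin, fell by 0.50.

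In the list of oxidative stress, prostaglandin and metabolism, 7 of 11 rose and 1 fell (48 genes, median 0.53), where 42.8% of all promoter genes rose. Apoe, a lipid carrier, had 175, 146 and 105 normalized reads in Tg197 and 87.2, 91.6 and 80.9 in WT (1.64-fold, log2 0.68 ± 0.18 SE, adjusted p = 0.00506, limma). Ch25h, which makes 25-hydroxycholesterol, rose by 0.60, the cholesterol exporter Abca1 by 0.46, the prostaglandin receptor Ptger4 by 0.55, the metallothionein Mt2 by 0.53 and lactate dehydrogenase Ldha by 0.43. Slc2a6, a hexose transporter, rose by 0.68, and by 0.39 without Tg197 library a. Txnrd1, thioredoxin reductase, fell by 0.65, and by 0.42 without Tg197 library a. In the AP-1 and immediate early list 3 of 8 rose and 3 fell, against 42.8% and 44.6% of all promoter genes. Junb, an AP-1 subunit, had 762, 720.2 and 755 normalized reads in Tg197 and 599, 637 and 634 in WT (1.2-fold, log2 0.26 ± 0.07 SE, adjusted p = 0.0053, limma) and Elk3 rose by 0.32, and neither was called when libraries were scaled on the start-site regions. Nr4a1, an orphan nuclear receptor, fell by 0.89, the ETS factor Etv4 by 0.67 and Cebpa, a factor of fat and myeloid cells, by 0.57. In the cytoskeleton list 3 of 10 rose and 5 fell, against the same 42.8% and 44.6%. With libraries scaled on the start-site regions 1 rise and 5 falls of this list passed. Pxn, the focal adhesion protein paxillin, rose by 0.49 and the GTPase Rac1 by 0.26. Flnc, a filamin, fell by 0.62, Myl9, a myosin light chain, by 0.58 and the GTPase Rhoa by 0.50. Myh9 and Cnn3 fell by 0.33 and 0.29 and reversed to 0.01 and 0.06 with scaling to the median of the listed regions.

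Markers of the sampled cell type and of other cells were read beside these groups. Over all promoter genes 42.8% rose and 44.6% fell, and each marker group had few listed promoters. Of 18 synovial fibroblast markers, 4 had a listed promoter region (Vcam1, Col6a1, Pdgfra and Pdgfrb) and all 4 rose, 2 of them also with libraries scaled on the start-site regions. Of their list's body regions 1 rose and 5 fell, the latter in 3 genes, where 24.2% and 73.2% of all gene-body regions did. Of 26 leukocyte markers, 23 had no listed region of any class, and the listed promoters of Coro1a and Cd79b both fell (-0.60 and -0.59). The sum of these promoters was 190.0 to 212.0 normalized reads in Tg197 and 283.7 to 340.1 in WT. Of the endothelial markers Pecam1 rose by 0.62, a call lost without Tg197 library a or WT library b, and Tek fell by 0.78. The 3 listed markers of cartilage, bone and fat (Adipoq, Comp and Cebpa, of 13) fell, and the sum of these promoters was 305.2 to 337.1 in Tg197 and 441.3 to 577.3 in WT. Mylpf, of muscle, fell by 0.61. The part of other cell types in the changes above was not tested. Since regions without a difference are not listed, a marker missing from the table may be unchanged or unmarked.

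Other promoters, most of them outside the lists, changed by as much. Clec2g, a C-type lectin-like gene, rose by 0.98, and Mpa2l, a guanylate-binding protein gene named Gbp6 in RefSeq, by 0.95. Pgk1, a glycolytic enzyme, had 1212, 422 and 314 normalized reads in Tg197 and 255, 279 and 299 in WT, so the rise of 0.97 came to 0.39 without Tg197 library a, and the call was lost without WT library a. Among falls, Ankrd49 had 33.2, 66.6 and 67.0 normalized reads in Tg197 and 114, 118 and 101 in WT (to 0.501 of WT, log2 -1.06 ± 0.26 SE, adjusted p = 0.00446, limma), Tmem19 fell by 1.03, Gsg1 by 0.98, Slain2, a microtubule protein, by 0.98, and 1810064F22Rik by 0.95. Adipoq, the fat cell hormone adiponectin, had 60.0, 64.5 and 40.2 normalized reads in Tg197 and 115, 97.7 and 100.0 in WT, without overlap (to 0.527 of WT, log2 -0.94 ± 0.22 SE, adjusted p = 0.00436, limma). At C130026I21Rik, which fell by 0.97, the enrichment over input was below 1 in both groups (0.23 and 0.42).

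The promoters with the most reads changed by less, as did listed regions of high level in general. At low levels only large changes can pass the authors' limit on p, so this relation is at least partly set by the selection of regions. Within 3 kb of a TSS, median changes were 0.41 and -0.47 at means of 157 to 3870 normalized reads. At 69.2 to 92.3 they were 0.69 and -0.75. Among the promoters with the most reads, those that rose were Nr2f2, a nuclear receptor of mesenchyme (0.46), 6330406I15Rik (0.52), Loxl1, Tsc22d4 (0.30) and Junb. Those that fell were Smad6, Snai2, Gm13285 (-0.50), A530032D15Rik (-0.43) and Fzd8. At A530032D15Rik the enrichment over input was below 1 in both groups (0.44 in Tg197 and 0.57 in WT). Nr2f2 had 1118, 976 and 1071 normalized reads in Tg197 and 757, 769 and 774 in WT, without overlap. Among the strongest enrichments over input was that of Msl1, at 22.83 in Tg197 and 18.71 in WT, with a log2 change of reads of 0.22 and a call lost in 5 of 6 fits that left out a library.

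Away from promoters the largest rises were intergenic. The region chr4:83842601-83843600, 75.3 kb from the nearest listed start, that of Bnc2, had 123, 103 and 87.9 normalized reads in Tg197 and 61.8, 32.3 and 39.3 in WT (log2 1.26). A region at chr7:90041501-90042500, 26.2 kb from Mex3b, rose by 1.19, and one at chr13:113070001-113071000, 8.16 kb from Ankrd55, by 1.15. The largest fall was at chrX:57183101-57184300, with 26.8, 67.6 and 32.6 normalized reads in Tg197 and 152, 173 and 120.2 in WT (log2 -1.90). A region in the body of B930007M17Rik fell by 1.84. At chr15:81095701-81096800, 30.0 kb from Mchr1, the values were 72.8, 204 and 55.2 normalized reads in Tg197 and 524, 142 and 497 in WT, so that 1 library of each group stood apart and the groups overlapped despite a change of -1.83.

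More genes had several fallen regions than several risen ones. There were 143 genes with 3 or more fallen regions and 12 with 3 or more risen ones, from 4363 regions that fell and 1870 that rose by both tests. Bre, a subunit of DNA repair complexes, had 9 fallen regions with a median log2 change of -0.73. The dynein genes Dnahc8 and Dnahc10 and Tmem49, a gene of autophagosome formation, had 7 each. C130026I21Rik also had 7, with a median enrichment over input of 0.23 in Tg197 and 0.42 in WT. Macf1 and Iqgap1, large proteins of the cytoskeleton, had 6 each. Ntn1, the guidance cue netrin 1, had 4 risen regions (median 0.74). Sufu, the inhibitor of hedgehog signalling, and the Ras scaffold Ksr1 had 3 each, and so did Smad3 and Axl, a receptor kinase that restrains inflammation. Lrp5 had 3 risen regions (median 0.66) and 3 fallen ones (median -0.75).

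Few of the promoter genes at 11 weeks recurred at the other ages. The tables were normalized and selected separately, so differences between them were not tested. At 11 weeks 801 promoter genes were higher and 809 lower. At 3 weeks, of 2782 promoter genes, 1179 were higher (42.4%) and 1650 lower (59.3%). The 8 week table had 514 higher (45.6%) and 581 lower (51.6%) of 1126. In WT cells of 8 weeks treated with TNF, 706 were higher (40.9%) and 984 lower (57.0%) of 1727. A gene may count as both where it has regions of each kind. Of the 801 higher genes, 135 were also higher at 3 weeks (16.9% of the 801 and 11.5% of the 1179), 53 at 8 weeks (6.62% and 10.3%) and 81 after TNF (10.1% and 11.5%). Of the 809 lower genes, 145 were lower at 3 weeks (17.9% and 8.79%), 50 at 8 weeks (6.18% and 8.61%) and 81 after TNF (10% and 8.23%). In the opposite direction, 88 of the 801 higher genes were lower at 3 weeks, 33 at 8 weeks and 68 after TNF, and 44, 34 and 21 of the 809 lower genes were higher there. Higher in no other table were 596 of the 801, and lower in no other 585 of the 809.

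A small set was shared by all 4 comparisons, of which both at 8 weeks used the same WT libraries. The 11 genes higher in each were Nfkbia, Nfkbie, Tnip1, Tnfaip3, Fas, Yap1, Hivep2, Sbno2, Ninl, Osbpl5 and 6330406I15Rik, of which the first 4 are inhibitors of NF-kB. The 8 lower in each were Sp7, Comp, Tgfb2, Hoxa13, Evx2, Dhrs3, Pias4 and Rn4.5s. At Nfkbie the means were 586 ± 185 and 388 ± 20.8 at 3 weeks and 320.4 ± 86.0 and 220 ± 25.9 at 8 weeks (Tg197 and WT, SD, n = 3), with overlap of the groups at both ages, which the 11 week libraries did not show. For Sp7 they were 139.5 ± 20.0 and 212 ± 18 at 3 weeks and 85.9 ± 28.3 and 172 ± 14.4 at 8 weeks, without overlap. Yap1 had 757 ± 190 and 558 ± 22.2 at 3 weeks, with overlap, and 204 ± 29.5 and 145 ± 13.7 at 8 weeks, without.

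Where regions of 2 tables shared at least 500 bases, promoters and other regions differed in whether the direction recurred. Of the 1965 regions higher at 11 weeks, 175 (8.91%) overlapped a 3 week region. Within 3 kb of a TSS, 89 of these were higher and 15 lower at 3 weeks. Beyond 3 kb, 8 were higher and 61 lower. Of the 4417 lower regions, 337 (7.63%) overlapped a 3 week region, and these were lower again in 56 and higher in 13 cases within 3 kb, and lower in 261 and higher in 3 cases beyond it. Where both tables listed a region beyond 3 kb, it was thus mostly lower at 3 weeks, whichever its direction at 11 weeks. With 8 weeks, the higher regions beyond 3 kb were higher in 4 and lower in 19 cases, and after TNF in 2 and 11. Those lower at 11 weeks were lower again in 42 and higher in 1 case at 8 weeks. After TNF these counts were 46 and 0.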

How the data were processed

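The data were H3K4me3 ChIP-seq libraries of Tg197 and WT synovial fibroblasts at 11 weeks, deposited as 1 table of regions on mm9. The submitters' processing notes name BWA, TopHat, TopHat2, Cufflinks, Cuffdiff and mm9 with neither version nor role, and the tool that found the regions is not named in what was read. Per the file headers, the authors gave normalized counts of 3 libraries in 1 cell per group, and the signal columns are their group means. The deposited enrichment columns hold a ratio over input, with scaling not stated. Fold changes were deposited by the authors as log2 of Tg197 over WT, and the deposited p-value columns give p and adjusted p for each region and its best window. The gene and position class of a region are the authors' annotation.

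The headers name only treatment and control. Control was taken as WT because the labels tie the 2 tables at 8 weeks to 1 WT group and their control reads were equal. The normalized control values are scaled differently in these tables, so they were first turned back into whole reads, as described below. The reads were equal in 162 of 162 values of their 54 identical regions. The letters a, b and c give the order of the libraries within a cell and match no numbered replicate. All values were whole multiples of 1 step per library (tolerance 0.02, 100.0% of values), which gave the read sums. Libraries of a group differed by more than counting noise (mean chi-square per region 1.31 to 4.23 between replicate pairs).

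Tests used limma 3.58.1 in R 4.3.3 on log2(normalized reads + 0.5), with a trended prior, on the 6 libraries, and Benjamini-Hochberg adjustment over all 6593 regions. Values after ± are SE for log2 changes and SD for means, and a fold is the ratio of group means. The call of a gene needed both this and the authors' adjusted p to be at most 0.05, an adaptation to a table that held both normalized values and the authors' test. The limma script was tested on simulated data. Alternatives were pseudocounts of 1 and 5, a minimum mean of 50, other scalings, voom on recovered reads, a robust prior, leaving out each library, and an authors' adjusted p of 0.001.

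Named genes were the 10 largest promoter rises and falls, the 5 largest outside promoters and the 5 promoters of the highest level in each direction, up to 5 genes a direction with 3 or more called regions, the 3 strongest enrichments, and up to 4 called members a direction of each of 29 lists. Other list members were named after their values were seen, to complete a list, and a few genes are not reported here. Members, lists and rules were chosen with earlier results of these data known. Promoter windows are RefSeq sequences of GRCm38.p6 matched by gene, and 26 of 35 members looked up had one.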

Additional observations from a re-analysis of the deposited data

Results flagged for a closer look

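Among the named genes and called list members, 6 regions had every Tg197 library on one side of the WT libraries at 11 weeks and on the other side in an overlapping region at 3 or 8 weeks, and the difference between ages was not tested. The tables were normalized separately. Overlapping regions beyond 3 kb were mostly lower at 3 weeks, whichever their direction at 11 weeks. A body region of Trp53, the p53 tumour suppressor (chr11:69403101-69404100), changed by 0.62 at 11 weeks and by -0.57 at 3 weeks, where the means were 91.4 in Tg197 and 136 in WT. A body region of Lrp5, a Wnt co-receptor (chr19:3669201-3670500), changed by 0.66 and, at 3 weeks, by -0.73 (109 and 180.1). A body region of Smad3 (chr9:63498501-63499600) changed by 0.61 and, at 3 weeks, by -0.66 (155 and 245). The promoter region of Tmem49 (chr11:86496201-86497500) changed by -0.32 at 11 weeks, which turns to 0.02 with libraries scaled to the median of the listed regions, and by 0.51 at 8 weeks (233 and 164). The promoter region of Rhoa (chr9:108210901-108212000) changed by -0.50 at 11 weeks and by 0.55 at 8 weeks (397 and 270.2). The promoter region of Col12a1, a fibril-associated collagen (chr9:79563001-79564800), changed by -0.64 at 11 weeks and by 0.19 at 8 weeks (217 and 189.6), where it did not pass the authors' adjusted p. Groups of 3 libraries were not tested for single outlying samples.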

How the results depend on the processing

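The counts of regions called by limma, 1952 risen and 4462 fallen, were identical with pseudocounts of 1 and 5. They were 1940 and 4461 with voom and 1961 and 4462 with a robust prior. A minimum mean of 50 removed none of the 6593 regions, whose lowest mean was 69.2, so it could not change the counts. Leaving out each library in turn gave 1781 to 1873 risen and 4323 to 4435 fallen. Scaling to the median of the listed regions left 681 fallen. Of 259 named regions it kept the direction and call of 160, while 93 lost the call and 6 reversed: Tmem49 (0.02), Fst (0.12), Myh9 (0.01), Cnn3 (0.06), Hoxa10 (0.11) and Fgfr2 (0.09). It also turned the medians of the lists of matrix proteases (from -0.13 to 0.21), proteoglycans (from -0.19 to 0.15), TGF-beta (from -0.04 to 0.30), Hox genes (from -0.24 to 0.11) and the cytoskeleton (from -0.05 to 0.29). Scaling to the start-site regions turned those of FGF and PDGF signalling (from 0.10 to -0.04) and AP-1 (from 0.06 to -0.09), and 34 named regions lost their call. These shifts follow from the scaling factors themselves. At an authors' adjusted p of 0.001, 1094 regions were higher and 2582 lower, the share higher beyond 3 kb was 22%, and 62 list genes rose and 41 fell, against 105 and 75. At that threshold the genes shared with 3 weeks, 8 weeks and TNF were 73, 18 and 28 on the higher side and 66, 21 and 40 on the lower side. With promoters taken as within 1 kb, the share higher was 62.4% in them and 26.0% elsewhere. With regions of any class, 190 list genes fell, 89 higher genes were shared with 8 weeks, and 1261, 367 and 404 lower genes were shared with 3 weeks, 8 weeks and TNF. The overlap by coordinates and the list counts by the authors' adjusted p alone were added after seeing the data. No paired analysis was possible because the libraries of a group are listed without numbers. With 3 libraries a group and 807633 to 1096917 reads each in the listed regions, a missed call does not show an unchanged gene.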
